A study of Mus musculus with 103 samples.

Results

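The dystrophin glycoprotein complex was followed in mouse muscle stem cells through 10 of its genes, chosen by symbol: Dmd, Utrn, Dag1, Sgca, Sgcb, Sgcd, Sgce, Sntb1, Sntb2 and Dtna. All 10 were among the 43283 bulk entries that carried an Ensembl gene ID, and all 10 were among the 22492 genes with a mean level of 1 TPM or above (TPM: transcript abundance scaled to gene length and library total) that were tested. The cells came from untreated C57BL/6 mice, and no group carries a mutation or a transgene by its labels. Bulk RNA came from 3 young mice (3 months in one label field, 2 months in another), 2 middle-aged ones (12 and 13 months) and 3 old ones (24 months). Single cells in 64 wells came from 1 young mouse (3 months) and in 31 wells from 1 old mouse (24 months). The labels name muscle stem cells as the source and describe culture with the growth factor FGF2, but not whether RNA came from cells before or after it. The design text calls the cells myoblasts, and the sources used here give no sort gate.

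The complex ties the actin skeleton inside a muscle cell to the basement membrane outside it. Dystrophin (Dmd) binds actin and the tail of beta-dystroglycan, alpha-dystroglycan (both cut from the Dag1 product) binds laminin through its sugar chains, the sarcoglycans brace the pair in the membrane, and syntrophins and dystrobrevin sit on the inner face as a signalling scaffold. Loss of dystrophin causes Duchenne muscular dystrophy, and utrophin (Utrn), its autosomal homologue, takes its place at the fibre surface in development and regeneration. In activated muscle stem cells dystrophin is also known to help place the polarity kinase MARK2, which orients asymmetric division.

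Dmd and Dag1 supplied most of the TPM of the 10 genes, and the bases before their start sites are shown because 1 TPM value per gene joins the products of several starts. RefSeq tables on GRCm38.p6 held an entry for 6 of the 10 genes (Dmd, Utrn, Dag1, Sgca, Sgcb and Sgcd). The entry of Utrn lies inside the gene, after its outermost annotated start, and is not shown. That of Sgcd also lies inside its gene. Dag1 has a further entry, with its start at position 108263815, whose window overlaps 2 annotated exons and is not shown either. It held 1 E-box, 3 GC boxes, 36 CpG sites and 74.8% G and C. Each sequence below is the 250 bases before a start, 5′ to 3′ on the gene's strand, and overlaps no exon of GENCODE vM21. Capitals mark E-boxes (CANNTG, the motif bound by myogenic factors among others) and GC boxes (GGGCGG on either strand, so also CCGCCC).
Dmd, start of the full-length gene, chrX:82948620-82948869, plus strand: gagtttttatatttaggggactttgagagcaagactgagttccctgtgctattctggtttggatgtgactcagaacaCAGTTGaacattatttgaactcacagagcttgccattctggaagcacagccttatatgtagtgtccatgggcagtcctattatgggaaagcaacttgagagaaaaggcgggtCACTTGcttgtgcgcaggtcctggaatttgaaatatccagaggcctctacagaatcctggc
Dmd, start near the 3′ end that gives the short Dp71 product, chrX:85048045-85048294, plus strand: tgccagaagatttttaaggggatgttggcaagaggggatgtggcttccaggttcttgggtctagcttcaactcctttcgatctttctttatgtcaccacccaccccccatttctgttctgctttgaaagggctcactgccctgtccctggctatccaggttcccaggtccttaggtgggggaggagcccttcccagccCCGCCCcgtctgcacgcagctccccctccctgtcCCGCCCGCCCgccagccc
Dag1, chr9:108263959-108264208, minus strand: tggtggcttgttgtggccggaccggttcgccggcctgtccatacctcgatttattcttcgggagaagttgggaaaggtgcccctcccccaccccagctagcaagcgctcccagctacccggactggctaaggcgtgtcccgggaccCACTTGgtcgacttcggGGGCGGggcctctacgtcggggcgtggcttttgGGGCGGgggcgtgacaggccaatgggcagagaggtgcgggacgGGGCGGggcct

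These starts differed in make-up. The full-length Dmd start had 2 E-boxes, 0 GC boxes, 2 CpG sites and 45.2% G and C, while the start of the short product, 2099.4 kb downstream, had 0 E-boxes, 3 GC boxes (of which a pair overlap) and 60% G and C. The Dag1 start shown had 1 E-box, 3 GC boxes, 21 CpG sites and 67.6% G and C. Among all 32817 windows of this length in the tables, 66.2% held an E-box and 32.7% a GC box, and the median was 6 CpG sites and 52.4% G and C. A match describes letters and no binding. The tables of values give 1 number per gene, so the share of each Dmd product was not measured.

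The libraries were those of muscle stem cells by their markers, with RNA of other cells beside them. Pax7, the transcription factor of muscle stem cells, stood at 127.34 to 316.22 TPM and Myf5 at 115.92 to 321.3 TPM in the 8 bulk libraries. All 13 muscle stem cell markers together came to 2609.53 to 3246.88 in the young, 1917.34 to 2709.78 in the middle-aged and 1801.13 to 2576.82 TPM in the old libraries. By mean log2(TPM + 1), 10 of the 13 were lower and 3 higher in old than in young libraries. Against young, 12 were lower and 1 was higher in middle-aged libraries. Pax7 and Chodl had every old and middle-aged library below the young ones, and Sdc4 had every one above them. Each library held 12849 to 17114 genes at 1 TPM or above. TPM give no read depth, so the precision of a bulk value rests on the spread between 2 or 3 libraries.

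Levels within the complex spanned a wide range. TPM are scaled by transcript length, so they can be set side by side between genes. Averaged over the 8 libraries, Dag1 stood at 445.65 ± 165.85 TPM (SD, n = 8) and Dmd at 431.77 ± 162.31 TPM, above 99.4% and 99.3% of the tested genes. Neither was above the other throughout: Dag1 exceeded Dmd in 3 of 8 libraries. Utrn followed at 55.39 ± 18.54 TPM, Sgcb at 38.97 ± 20.47 and Sgce at 33.26 ± 12.85 TPM. Dmd exceeded Utrn in 8 of 8 libraries, but Utrn exceeded Sgcb in 5 and Sgcb exceeded Sgce in 3, so these neighbours had no stable order. Sgce exceeded Sntb2 (13.84 ± 4.75 TPM) in 8 of 8 libraries. Below it, Sgca, Sgcd, Dtna and Sntb1 averaged 11.08, 8.22, 6.64 and 5.98 TPM, and neighbours kept their order in 4 to 6 of 8 libraries. Dmd and Dag1 together made up 76.9% to 86.5% of the TPM of the 10 genes.

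**Figure D1:**
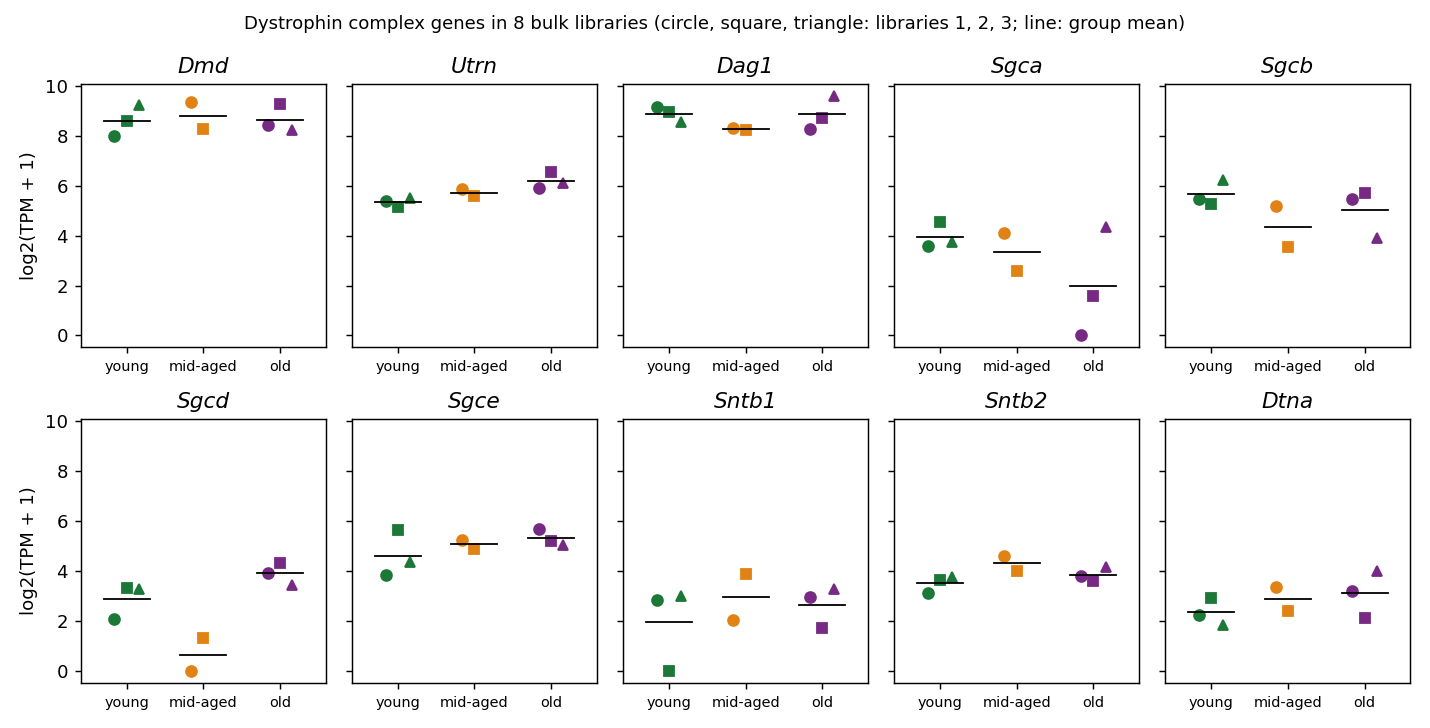
Level of each gene of the complex as log2(TPM + 1) (vertical axis) in 3 young, 2 middle-aged and 3 old bulk libraries; symbols mark the libraries and the line is the group mean. Dmd and Dag1 lie at the top in every library, the old libraries of Utrn and Sgcd lie above the young ones, and Sgca is listed at 0 in old library 1.

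Across the 10 genes, no difference between ages passed the test. limma on log2(TPM + 1) with Benjamini-Hochberg adjustment called 0 of 10 in old against young, where it called 0% of all genes. It called 0 of 10 in middle-aged against young, where it called 0.00445% of all genes, and 0 of 10 in old against middle-aged, where it called 0%. At an unadjusted p under 0.05 the counts were 1 of 10 (Utrn, higher) beside 5.89% of all genes in old against young, 1 of 10 (Sgcd, lower) beside 7.78% in middle-aged against young, and 1 of 10 (Sgcd, higher) beside 6.19% in old against middle-aged. With 10 genes, 1 is the smallest count above 0, so no share here stands out from that of the whole table. The fitted old minus young difference was above 0 for 7 of 10 genes (54.2% of all genes), with a median of 0.52 log2 units beside 0 over all genes. In the other pair of comparisons 6 of 10 were above 0, beside 55.2% of all genes for middle-aged minus young and 42.4% for old minus middle-aged. The median of all genes was shifted by 0.18 in middle-aged minus young. It was 0.10 among genes averaging 5 TPM or above and 0.04 among genes above 0 in all 8 libraries. Each of the 10 genes averaged over 5 TPM, so 0.10 is a nearer reference for them than 0.18. Comparisons that share a group are not independent of each other. By the design text each bulk library came from its own mouse.

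**Figure D2:**
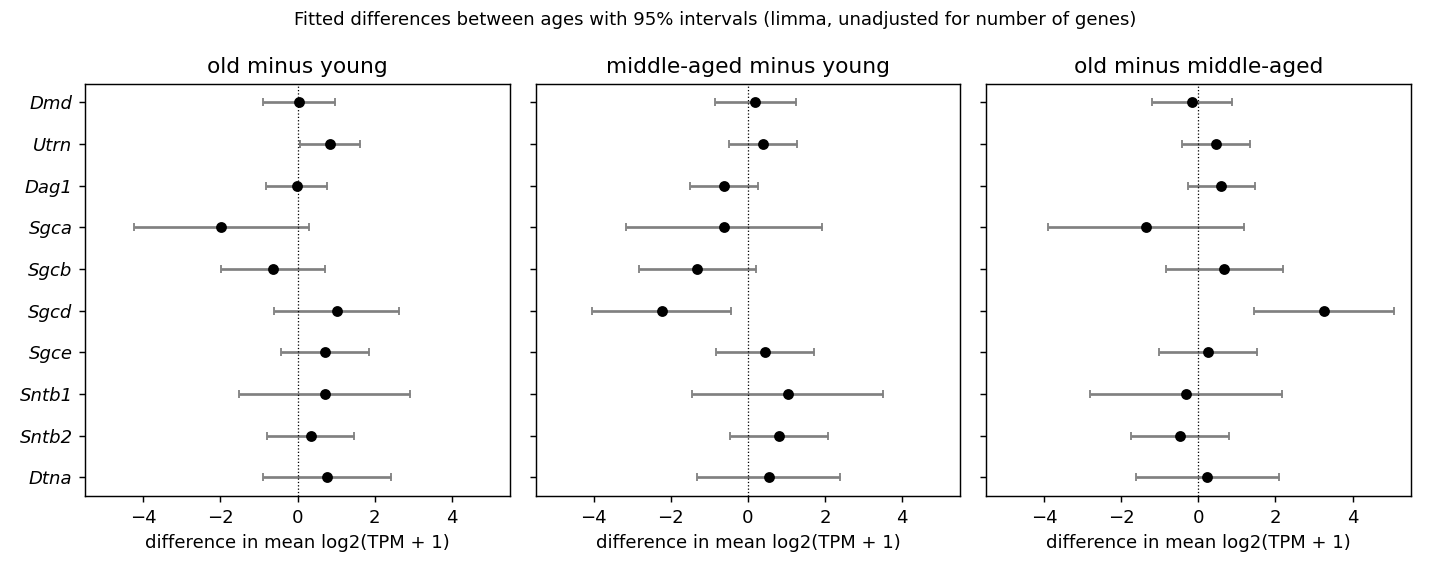
Fitted differences in mean log2(TPM + 1) (horizontal axis) for the 10 genes in the 3 comparisons of ages, with 95% intervals from limma that are not adjusted for the number of genes. The interval of Utrn in old minus young and those of Sgcd in both comparisons with the middle-aged group leave out 0, and the others include it.

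Dystrophin itself was abundant at every age, and the ages overlapped. Dmd (chromosome X, 82948870 to 85206141, plus strand) stood at 255.6, 381.01 and 604.7 in the young, 648.35 and 306.67 in the middle-aged and 340.89, 614.44 and 302.5 TPM in the old libraries. Within each group the highest library had over 2 times the level of the lowest. The old minus young difference was 0.04 log2 units (SE 0.42, 95% interval -0.90 to 0.97, adjusted p = 1 by limma). Its sign was not stable, with -0.27 without young library 1 and -0.28 without old library 2. The interval leaves room for a change of up to nearly 1 log2 unit either way. Several small genes lie within Dmd, among them the coding gene Tsga8 on the opposite strand, and whether the counting used strand is not given in the sources used here.

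Utrophin was the gene of the complex with the smallest p in old against young. Utrn (chromosome 10, 12382188 to 12869365, minus strand) stood at 40.32, 34.41 and 44.82 in the young, 56.85 and 47.28 in the middle-aged and 58.84, 92.67 and 67.93 TPM in the old libraries. Every old library lay above every middle-aged one, and every middle-aged library above every young one. Old exceeded young by 0.84 log2 units (1.79-fold, SE 0.36, 95% interval 0.05 to 1.63), with an unadjusted p of 0.0385 and an adjusted p of 0.831 by limma, so it did not pass the test. It lay between 0.66 and 0.98 when each library was left out in turn. Groups that do not overlap, with old higher, were found for 2 of the 10 genes, Utrn and Sgcd, beside 5.85% of all genes. No gene of the complex had all old libraries below the young ones, beside 4.16% of all genes. For comparisons with the 2 middle-aged libraries the share of all genes without overlap was not counted. With so few libraries such an order is easily met, and it is given throughout as a description. The middle-aged minus young difference was 0.38 (SE 0.40) and old minus middle-aged 0.46 (SE 0.40).

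The balance of the homologues was also taken within each library, where the library total cancels. Dmd exceeded Utrn 6.34, 11.07 and 13.49 times in young, 11.4 and 6.49 times in middle-aged, and 5.79, 6.63 and 4.45 times in old libraries. Old library 2, at 6.63, lay above young library 1, so the groups overlap. The log2 ratio of Utrn to Dmd was -3.26 ± 0.56 in young and -2.46 ± 0.29 in old (SD, n = 3 each), a difference of 0.81 with an exact two-sided permutation p of 0.2, where 0.1 is the smallest that the 20 splits allow.

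Drp2, the third relative of dystrophin, known for its place with periaxin in Schwann cells, was also high. It stood at 185.94, 157.53 and 137.06 in the young, 174.2 and 92.62 in the middle-aged and 103.11, 225.15 and 121.52 TPM in the old libraries, above Utrn in each of them. The ages overlap, and old minus young was -0.17 log2 units (SE 0.39, adjusted p = 0.972 by limma).

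Markers of Schwann cells, which wrap nerve fibres and also use utrophin, dystroglycan and a short dystrophin product, were at higher levels in the same old libraries. All 11 Schwann cell markers had a positive old minus young difference (median 2.46 log2 units), beside 54.2% of all genes. All old libraries lay above the young ones for 9 of 11, beside 5.85% of all genes. None of the 11 passed the adjusted limma test, and 9 had an unadjusted p under 0.05, beside 5.89% of all genes. Their summed level was 162.57 to 269.9 in the young, 391.12 to 640.93 in the middle-aged and 582.09 to 1521.99 TPM in the old libraries. Egr2 gave the largest part in each young (76.25, 105.6 and 115.21 TPM) and middle-aged library (206.69 and 299.32 TPM). In the old libraries Egr2 stood at 127.7, 166.41 and 230.54 TPM. Sox10, the defining transcription factor of Schwann cells, stood at 1.83, 11.52 and 6.28 in the 3 young and 51.99, 43.2 and 27.95 TPM in the 3 old libraries, and none of the 11 was at 0 throughout. Old library 2 had the highest Schwann marker sum and the highest Utrn and Drp2, and the second highest Dmd. Below it Drp2 did not follow the sum: young library 1, with the lowest sum, had the second highest Drp2. The part of these markers in the Utrn values was not tested in bulk, where more cells of a type and more RNA per cell cannot be told apart.

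**Figure D3:**
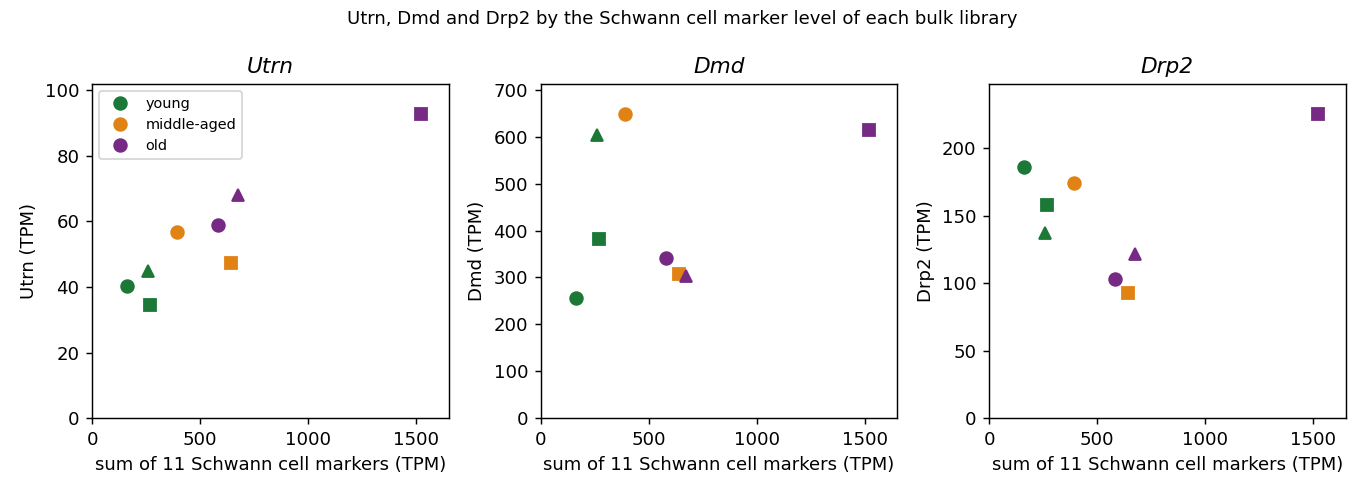
Utrn, Dmd and Drp2 (vertical axes, TPM) by the summed level of 11 Schwann cell markers (horizontal axis, TPM) in the 8 bulk libraries, coloured by age; circle, square and triangle are libraries 1, 2 and 3. Old library 2, at 1521.99 TPM of markers, is highest for Utrn and Drp2, while the highest Dmd value, 648.35 TPM, is that of middle-aged library 1. Egr2 is the largest part of the sum in each young and middle-aged library.

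The genes most like Dmd, Utrn and Dag1 over the 8 libraries were looked up among 11767 genes averaging 5 TPM or above, by Pearson's r of log2(TPM + 1), as a description. With 8 points and this many genes, some high values can arise from the number of genes alone: 24, 29 and 16 of the 11767 had r above 0.9. Nearest to Dmd were Itm2b, a membrane protein gene (r = 0.987, 230.72 to 489.75 TPM), Ago3, an Argonaute (r = 0.974), and Chpt1, a phospholipid enzyme (r = 0.970). Utrn was nearest to the plexin Plxnb1 (r = 0.989, 0 to 19.37 TPM), to Nes, an intermediate filament gene (r = 0.977, 3.38 to 28.17 TPM), and to Gldn (r = 0.969), which encodes gliomedin, a Schwann cell protein of the node of Ranvier. Gldn stood at 2.07, 0 and 5.93 in the 3 young and 20.78, 85.64 and 20.22 TPM in the 3 old libraries. Dag1 was nearest to Arid4a (r = 0.955), Cyhr1 (r = 0.952) and the growth factor receptor Fgfr4 (r = 0.95, 60.45 to 170.33 TPM).

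Dystroglycan varied as widely within an age as between ages. Dag1 (chromosome 9, 108204634 to 108263958, minus strand) stood at 567.96, 496.17 and 377.41 in the young, 314.74 and 300.96 in the middle-aged and 307.68, 419.12 and 781.17 TPM in the old libraries. Both middle-aged libraries lay below all young ones, while the old libraries held both the second lowest value of the 8 and the highest. Middle-aged minus young was -0.62 log2 units (SE 0.39, 95% interval -1.49 to 0.25, adjusted p = 0.626 by limma). Old minus young was -0.03 (SE 0.35, 95% interval -0.81 to 0.75, adjusted p = 1), and its sign was not stable: 0.16 after quantile normalization, and -0.40 to 0.27 with each library left out. Dmd and Dag1 did not move together, since Dmd exceeded Dag1 by 2.06 times in middle-aged library 1 and had 0.39 times its level in old library 3.

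The sugar chains by which dystroglycan binds laminin are built by a series of glycosyltransferases. All 17 genes of that list were tested and none passed the adjusted test. In old against young 0 had an unadjusted p under 0.05, beside 5.89% of all genes. The difference was above 0 for 11 of 17 (median 0.20 log2 units), beside 54.2% of all genes. The smallest p values belonged to Dpm3, a dolichol-phosphate mannose subunit (log2 difference 2.91, adjusted p = 0.839), and Pomgnt1, which adds N-acetylglucosamine to the mannose (-1.38, adjusted p = 0.839), both from limma. Dpm3 was listed at 0 in all 3 young libraries and at 33.66, 11.26 and 0 TPM in the old ones. Pomgnt1 stood at 6.77, 41.63 and 13.02 in the 3 young and 1.59, 16.71 and 4.8 TPM in the 3 old libraries. Ispd, which makes a donor for the chain, and B4gat1, which primes its laminin-binding part, came next (1.23 and 1.22 log2 units).

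Dystroglycan's ligands were listed together with beta and gamma chains of laminin. Of the gene lists around the complex, this one had the highest median old minus young difference. Of 12 listed, 11 were tested, and 9 had an old minus young difference above 0 (54.2% of all genes) and 2 below it. The median was 1.13 log2 units beside 0 over all genes. None passed the adjusted test, and 4 of 11 had an unadjusted p under 0.05, all higher, beside 5.89% of all genes. Lamb2, a laminin beta chain of synaptic and vascular basement membranes, stood at 27.73, 20.22 and 19.08 in the young, 80.96 and 72.62 in the middle-aged and 63.48, 78.8 and 135.34 TPM in the old libraries. All 5 libraries past the young age lay above the young ones. Its old minus young difference was 1.95 log2 units (SE 0.40, adjusted p = 0.501 by limma). Lamb1 stood at 9.61, 5.7 and 9.36 in the 3 young and 41.74, 38.55 and 25.25 TPM in the 3 old libraries, 1.97 log2 units higher (SE 0.48, adjusted p = 0.544 by limma). Lama4, the alpha chain of peripheral nerve and vessel laminins, stood at 6.4, 13.42 and 8.92 in the 3 young and 64.68, 20.4 and 57.77 TPM in the 3 old libraries, 2.10 log2 units higher (SE 0.58, adjusted p = 0.634 by limma). The proteoglycan biglycan (Bgn), which also binds sarcoglycans, was 0.75 log2 units higher (SE 0.29, adjusted p = 0.808 by limma), from 326.25 to 422.68 TPM in young to 446.4 to 744.42 TPM in old. Not all of the list differed so far. The old minus young difference was 0.56 (SE 0.36) for Lama2 and -0.13 (SE 0.53) for Agrn. For Lamc1, the most abundant laminin chain of the list, it was 0.01 (SE 0.32). Beside them, the 11 fibroblast markers summed to 1116.42 to 1290.3 in the young and 1462.19 to 2049.61 TPM in the old libraries, and the Schwann cell marker sums were as given above. The fibroblast markers did not all move one way: of 9 tested, 7 had an old minus young difference above 0 and 2 below it. Col3a1 had every old library below the young ones (96.45 to 214.84 beside 225.67 to 285.39 TPM). The 8 tenocyte markers summed to 15.24 to 32.16 TPM in the young and 70.61 to 100.59 TPM in the old libraries, with a difference above 0 for all 7 that were tested. Of the 9 smooth muscle markers, 5 had an old minus young difference above 0 and 4 below it. Acta2, Myh11 and Cspg4 had every old library above the young ones, while Kcnj8 had every old library below them. The sums of the 9 overlapped (436.16 to 639.01 in the young and 425.21 to 828.9 TPM in the old libraries). The part of these other cells in the ligand values was not tested.

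Integrins are the other laminin receptors of the muscle stem cell. All 7 genes of that list were tested, 5 had an old minus young difference above 0 (54.2% of all genes) and none passed the adjusted test. Itga6, a laminin-binding subunit, stood at 33.75, 37.04 and 16.82 in the young, 76.4 and 86.37 in the middle-aged and 85.61, 66.28 and 54.5 TPM in the old libraries (old minus young 1.26, SE 0.41, adjusted p = 0.728 by limma). Ilk, the integrin-linked adaptor, was 1.14 log2 units higher (SE 0.39, adjusted p = 0.738 by limma). Itga3 (2.32) and Vcl (0.75) followed by p, with unadjusted values of 0.108 and 0.192.

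The sarcoglycans fell into a more abundant pair, Sgcb and Sgce, and a less abundant pair, Sgca and Sgcd. Alpha-sarcoglycan (Sgca) is the form of striated muscle and epsilon-sarcoglycan (Sgce) its close relative in many tissues, while beta and delta form the core of the subcomplex. Sgcz, the zeta form, reached at most 1.86 TPM. Cav3, the muscle caveolin that binds dystroglycan, was listed at 0 in all 8 libraries.

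Delta-sarcoglycan was lowest in middle age. Sgcd (chromosome 11, 46896253 to 47988969, minus strand) stood at 3.24, 9.02 and 8.66 in the young, 0 and 1.48 in the middle-aged and 14.36, 19.09 and 9.92 TPM in the old libraries. The 3 groups do not overlap, in the order middle-aged, young, old. How many of all genes have 3 groups without overlap was not counted. Old minus middle-aged was 3.25 log2 units (SE 0.82, 95% interval 1.44 to 5.06), the widest difference of the 10 genes, with an unadjusted p of 0.00237 and an adjusted p of 0.485 by limma. Middle-aged minus young was -2.24 (SE 0.82, adjusted p = 0.508) and old minus young 1.01 (SE 0.73, adjusted p = 0.839), both by limma. All 3 kept their sign with each library left out, and the smallest adjusted p then reached was 0.0719, for old against middle-aged without middle-aged library 2. That fit leaves middle-aged library 1, which is listed at 0, as the only library of its age. A value of 0 here can also be a failed estimate at an unknown depth. The middle-aged libraries also stood apart in markers of other cells. Their 11 macrophage markers summed to 129.52 and 84.99 TPM, beside at most 60.42 TPM in any other library, their 9 endothelial markers to 87.89 and 55.76 TPM, beside at most 42.08, and their 8 tenocyte markers to 120.02 and 144.94 TPM, beside at most 100.59. Single genes gave much of these sums. Lyz2 stood at 78.65 and 58.24 TPM in the middle-aged libraries, while Ptprc, also of the macrophage list, lay below every young library there (4.79 and 4.25 TPM). Chad of the tenocyte list stood at 47.52 and 46.41 TPM, while Tnmd was listed at 0 in both. C1qa of the macrophage list and Cldn5, Tie1 and Egfl7 of the endothelial list were listed at 0 in all 8 libraries. The part of these cells in the middle-aged values was not tested.

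Alpha-sarcoglycan was scattered among old mice. Sgca (chromosome 11, 94962791 to 94976327, minus strand) stood at 10.93, 22.58 and 12.26 in the young, 16.42 and 4.92 in the middle-aged and 0, 2.02 and 19.51 TPM in the old libraries. A pair of old libraries lay below every young one and the third lay within the young range. The old minus young difference was -1.97 log2 units (SE 1.03, 95% interval -4.25 to 0.30, adjusted p = 0.839 by limma). It was -0.98 without old library 1 and -3.16 without old library 3. The coding gene Hils1 overlaps Sgca on the opposite strand.

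Epsilon-sarcoglycan showed no such low values. Sgce (chromosome 6, 4674350 to 4747207, minus strand) stood at 13.28, 48.37 and 19.85 in the young, 36.97 and 28.5 in the middle-aged and 50.68, 36.07 and 32.35 TPM in the old libraries. Young library 2 lay within the old range, and the old minus young difference was 0.71 log2 units (SE 0.51, adjusted p = 0.839 by limma). The log2 ratio of Sgce to Sgca was 0.26, 1.07 and 0.65 in the young, 1.12 and 2.32 in the middle-aged and 5.69, 3.62 and 0.70 in the old libraries. Old exceeded young by 2.68 on average, with an exact two-sided permutation p of 0.2, since old library 3 lay among the young ones. Without old library 1 the difference was 1.5, and it was 3.91 with a pseudocount of 0.1 and 1.65 with a pseudocount of 5.

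Beta-sarcoglycan had its lowest values in a library of each later age. Sgcb (chromosome 5, 73632749 to 73647790, minus strand) stood at 43.69, 37.81 and 75.04 in the young, 35.66 and 10.54 in the middle-aged and 43.51, 51.34 and 14.13 TPM in the old libraries. Both middle-aged libraries lay below the young ones, with a fitted difference of -1.31 log2 units (SE 0.68, adjusted p = 0.626 by limma) that was -0.47 without middle-aged library 2 and -2.14 without middle-aged library 1. Old minus young was -0.64 (SE 0.61, adjusted p = 0.85 by limma), and -0.08 without old library 3. Sarcospan (Sspn), the tetraspan protein that the sarcoglycans hold, had 19.74, 25.31 and 27.57 in the 3 young and 7.32, 11.66 and 22.05 TPM in the 3 old libraries (log2 difference -0.89, SE 0.53, adjusted p = 0.839 by limma). Its ages overlap through old library 3.

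The syntrophins and dystrobrevins of the inner face were low. Beta-2-syntrophin (Sntb2, chromosome 8, 106935750 to 107019714, plus strand), an adaptor for channels and kinases, had 7.66, 11.48 and 12.51 in the young, 23.57 and 14.93 in the middle-aged and 12.79, 11.07 and 16.68 TPM in the old libraries. Both middle-aged libraries lay above the young ones (middle-aged minus young 0.80, SE 0.57, adjusted p = 0.659 by limma), and old overlapped young (0.34, SE 0.51). Beta-1-syntrophin (Sntb1, chromosome 15, 55636388 to 55906949, minus strand) had 6.11, 0 and 6.97 in the young, 3.12 and 13.86 in the middle-aged and 6.78, 2.28 and 8.68 TPM in the old libraries. Its old minus young difference of 0.71 (SE 1.00) rested on the 0 of young library 2 and was -0.26 without it. Alpha-dystrobrevin (Dtna), which binds dystrophin and syntrophin, had 3.78, 6.62 and 2.59 in the young, 9.31 and 4.26 in the middle-aged and 8.21, 3.4 and 14.93 TPM in the old libraries. The ages of Dtna overlap throughout (old minus young 0.77, SE 0.75, adjusted p = 0.852 by limma), and an annotated antisense gene, Gm47898, lies across it.

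Further subunits and scaffold proteins were mostly at low levels too. Of 10 listed, Drp2, Sspn, Nos1, Sgcz and Cav3 among them, 7 were tested. Of these, 4 had an old minus young difference above 0 (54.2% of all genes) and 3 below it. At an unadjusted p under 0.05 there were 0, beside 5.89% of all genes. Beta-dystrobrevin (Dtnb) had 36.44, 11.1 and 14.66 in the young, 33.84 and 5.42 in the middle-aged and 1.1, 9.64 and 18.7 TPM in the old libraries (old minus young -1.34, SE 0.94, adjusted p = 0.839 by limma). The gamma syntrophins Sntg1 and Sntg2 reached 22.04 and 12.2 TPM, and Sntg2 was above 0 only in young library 3 and old library 3 of the 8. Neuronal nitric oxide synthase (Nos1), which syntrophin and dystrophin hold at the fibre membrane, had 1.1, 0 and 0 in the young, 1.44 and 16.42 in the middle-aged and 8.61, 2.63 and 1.14 TPM in the old libraries. Its old minus young difference of 1.72 log2 units (SE 1.04, adjusted p = 0.839 by limma) included old library 3, at 1.14 TPM, which barely exceeded young library 1, at 1.1 TPM.

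Fibre RNA was present at a low level. Acta1 and Ckm, the actin and the creatine kinase of fibres, were listed at 0 in 6 and 7 of 8 libraries and at most at 3.77 TPM elsewhere. The 16 fibre markers summed to 33.65 to 73.68 in the young, 46.92 to 56.12 in the middle-aged and 61.66 to 136.74 TPM in the old libraries, while Dmd stood at 255.6 TPM or above in each. Ttn and Neb, the giant proteins of the sarcomere, were above 0 in all 8 libraries, at up to 25.33 and 22.51 TPM, and Atp2a1, the calcium pump of fast fibres, reached 51.2 TPM in old library 3.

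Partners inside the cell and polarity genes did not differ beyond the test. The old minus young difference was above 0 for 6 of 9 tested cytoplasmic partners and 6 of 10 polarity genes (54.2% of all genes). In either list 0 had an unadjusted p under 0.05, beside 5.89% of all genes. Mark2, the polarity kinase bound by dystrophin, stood at 29.42, 34.18 and 26.93 in the young, 55.83 and 25.76 in the middle-aged and 16.14, 43.68 and 69.24 TPM in the old libraries. Old libraries lay on both sides of the young range (log2 difference 0.28, SE 0.56). The intermediate filament partner synemin (Synm, 1.66 log2 units), the cytolinker plectin (Plec, 0.83) and actin (Actb, 0.35) had the smallest p of their list, from 0.0911 to 0.275, ahead of Mark2. Among polarity genes these were Scrib (1.5), Numb (0.90), Pard6a (1.35) and Prkcz (-0.98), from 0.116 to 0.484. Over all 6 lists around the complex, 60 of 65 genes were tested by limma, 40 had an old minus young difference above 0 and 20 below it, beside 54.2% of all genes above 0. None passed the adjusted test, and 6 of 60 had an unadjusted p under 0.05, beside 5.89% of all genes, all higher (Lamb2, Lamb1, Lama4, Bgn, Itga6 and Ilk).

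Single wells showed which genes of the complex were found in the same cell. Wells of 1 mouse are not replicates of an age, so ages were not tested here. A gene counted as found at 1 TPM or more, and intervals are exact 95% binomial intervals that cover counting error between wells. Old wells were shallow: 21 of 31 old wells held fewer than 500 genes, against 8 of 64 young wells, and the median was 64 genes in old and 1854 in young wells. Shares are therefore given for all wells and for the 56 young and 10 old wells with at least 500 genes.

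Dag1 and Dmd led in wells as they did in bulk. Dag1 was found in 47 of 64 young wells (73.4%, 60.9% to 83.7%) and 7 of 31 old wells (22.6%, 9.6% to 41.1%). With at least 500 genes the shares were 47 of 56 (83.9%) and 6 of 10 (60%, 26.2% to 87.8%). Dmd was found in 42 of 64 young wells (65.6%, 52.7% to 77.0%) and 7 of 31 old wells (22.6%), and with at least 500 genes in 42 of 56 (75.0%) and 6 of 10 (60%). Where found in young wells, Dag1 ranged from 1.17 to 426.65 TPM with a median of 82.64 TPM, and Dmd from 1.09 to 260.89 TPM with a median of 50.78 TPM. In the young mouse, 480 of the 13327 genes found in any young well were in at least as many wells as Dmd, and 373 as Dag1.

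Many wells held both. Among the 64 young wells, 37 held Dmd and Dag1 together, which is 88.1% of wells with Dmd and 78.7% of those with Dag1. A further 5 held Dmd alone, 10 Dag1 alone and 12 neither. The median number of genes was 1964 in wells with both and 123 in wells with neither, so depth moved with the count. With at least 500 genes, 37 of 56 wells held both, 5 Dmd alone, 10 Dag1 alone and 4 neither. Dag1 was in 83.9% and Dmd in 75.0% of all 56 wells, a total that includes the wells with the other gene. Whether finding 1 of them went with finding the other was not tested.

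Utrn was found in fewer wells at either age. It was in 16 of 64 young wells (25%, 15% to 37.4%) and 3 of 31 old wells (9.7%, 2.0% to 25.8%), and with at least 500 genes in 16 of 56 (28.6%) and 3 of 10 (30.0%, 6.7% to 65.2%). Of the 16 young wells with Utrn, 12 also held Dmd and 14 held Dag1. All 16 held Pax7, Myf5 or Calcr, markers of muscle stem cells, as did 51 of all 56 young wells with at least 500 genes. Sox10 was found in 1 of those 56 wells and in 0 of the 10 old ones (0 of 10 allows a share of up to 30%), too few to set beside Utrn.

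The rest of the complex was sparse in wells. Drp2 was in 26 of 64 young and 4 of 31 old wells, all in wells with at least 500 genes (26 of 56 and 4 of 10). Sntb2 was in 15 young wells and 2 old wells, Sgcb in 6 and 2, Sgca in 5 and 1, Sgce in 3 and 0, and Dtna in 1 and 0, also all among the 56 and 10 wells of that depth. Of those 10 old wells, 2 make up 20%, with an interval of 2.5% to 55.6%. Sgcd and Sntb1 were in none of either, which allows a share of up to 5.36% of the 56 young and 30% of the 10 old wells. The mean TPM of Sgca over the 64 young wells, 12.75, was near its 15.26 TPM in young bulk libraries although it was found in only 5 wells, at 45.25 to 347.89 TPM. For Dmd the well mean was 42.3 TPM beside 413.77 TPM in bulk, and for Dag1 73.44 beside 480.51 TPM. These tables were made from different libraries, so the levels are set side by side with no test.

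At least 1 of the 10 genes was found in 55 of 64 young wells (85.9%, 75.0% to 93.4%) and 11 of 31 old wells (35.5%, 19.2% to 54.6%). With at least 500 genes, this became 55 of 56 and 9 of 10. Most young wells held 2 or 3 of the genes (18 wells each), and 2 wells held 5, the most in any.

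**Figure D4:**
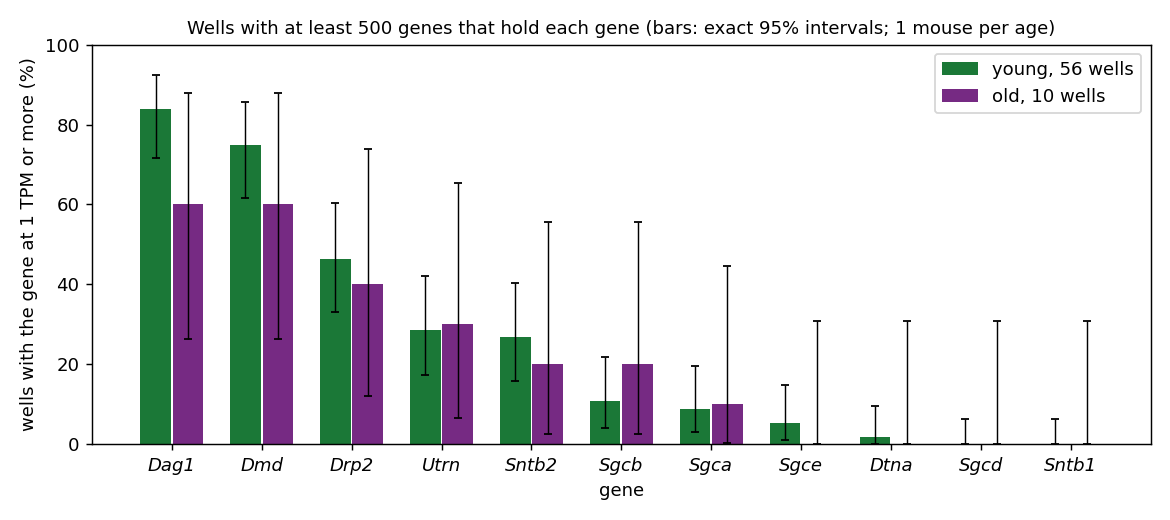
Share of wells (vertical axis, percent) in which each gene (horizontal axis) reached 1 TPM, among 56 young and 10 old wells with at least 500 genes; bars are shares, lines exact 95% intervals, and each age is 1 mouse. Dag1 and Dmd are found most often at both ages, Drp2 and Utrn less often, and the old intervals are wide.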

How the data were processed

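RNA was measured in 8 bulk libraries and 95 single wells. Values in the deposited tables, bulk and wells, are TPM per the labels. Alignment with STAR to mm10 is named in the submitters' processing notes; for versions, quantification, annotation and strand, the sources used here give nothing. TPM hold no read depth. Groups came from the labels. Genes were matched by symbol on entries with an Ensembl ID, and positions came from GENCODE vM21, which held 42782 of 43283 IDs. limma 3.58.1 in R 4.3.3 was fitted to log2(TPM + 1) of 22492 genes averaging 1 TPM or above, on all 8 libraries with a mean per age, an intensity trend, two-sided tests and Benjamini-Hochberg adjustment (threshold 0.05). Fold changes are on that log2 scale and understate changes of low genes.

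On simulated data for old against young (22492 genes, 10 runs) the fit recovered 0% of genes that were shifted by 1 log2 unit, 9.18% of those by 2, 28.7% by 3 and 50.5% by 4, with 21 false calls of 456. Ratios had exact permutation tests. Wells had Clopper-Pearson intervals, with 3 wells of the total as the limit for a count of 0. Every gene of the complex and of its further subunits was named, apart from some that are not reported here, and from each other list those past the threshold plus the 4 with the smallest p. The genes and lists were chosen with earlier results of these data known. Descriptions used pandas 2.3.3, numpy 2.4.6 and scipy 1.17.1 under Python 3.11.15, and plots matplotlib 3.10.9.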

Additional observations from a re-analysis of the deposited data

How the results depend on the processing

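No gene of the complex passed the threshold in any comparison under any alternative run (pseudocount 0.1 or 5, mean TPM of at least 5, no filter, genes above 0 in all 8 libraries (which leaves out Sgca, Sgcd and Sntb1), no intensity trend, only the groups compared, rescaling without mitochondrially encoded genes, quantile normalization, a replicate block, or each library left out), and 0 genes of the surrounding lists did in old against young. The lowest adjusted p over these was 0.446 (Utrn) in old against young, 0.166 (Sgcd) in middle-aged against young and 0.0719 (Sgcd) in old against middle-aged. A fit with the replicate block gave 7 genes higher and 0 called in old against young, as without it, and changed no call of the 10 genes (over all genes, middle-aged against young went from 1 call to 0); deviations of same-numbered libraries had r of -0.012 to 0.005, so the numbers do not pair them. The sign of 7, 8 and 6 of 10 genes held throughout in the 3 comparisons.

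With each library left out, the old minus young difference of Dmd ranged from -0.28 (without old library 2; -0.27 without the first young one) to 0.35, that of Dag1 from -0.40 to 0.27 (above 0 without young 1, 0.11, young 2, 0.01, old 1, 0.27, and old 2, 0.05), and that of Sntb1 from -0.26 (without young 2) to 1.24. Quantile normalization also turned Dag1 (0.16). For middle-aged minus young, Dmd ranged from -0.34 (without middle-aged 1; -0.11 without young 1) to 0.74 and Sgca from -1.39 to 0.17 (without middle-aged 2). For old minus middle-aged, Dmd ranged from -0.70 to 0.38 (without middle-aged 1; 0.04 without old 3), Sgcb from -0.16 (without middle-aged 2) to 1.51, Dtna from -0.26 (without middle-aged 2; -0.21 without old 3) to 0.72, and Sntb1 from -1.24 to 0.61 (without middle-aged 2; 0.15 without old 2; 0.18 after quantile normalization). The cause was not tested.

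The Utrn to Dmd difference lay between 0.58 and 1.12, and that of Sgce to Sgca between 1.5 and 3.995, with a library left out. The share of young wells with at least 1 of the 10 genes was 73.4% at 10 TPM, 98.15% without wells under 50% of the median genes of their age, and 98.21% in wells with at least 500 genes, where that of old wells was 90%. That last limit was chosen after seeing the data. Counts called over all genes in middle-aged against young moved from 1 to 859 without middle-aged library 2 and 600 without middle-aged library 1, and in old against middle-aged from 0 to 792 and 580. A lone library there is assumed to vary like the other groups.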
